A study of Mus musculus with 19 samples.

Results

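The Cyp2b genes encode a subfamily of cytochrome P450 monooxygenases, and 4 of them were followed here in mouse hepatocytes, the liver's main metabolic cells: Cyp2b9, Cyp2b10, Cyp2b13 and Cyp2b23. They were found by symbol among the 24537 genes of the deposited count table, and all 4 had a row. Poly(A) RNA had been sequenced from these cells in 10 young (5 months) and 9 old (24 months) males, all wild-type and of the C57BL/6J strain, with no treatment named in the labels. The hepatocytes had been obtained by perfusion of the liver, and 1 library stands for each mouse number. The mice were culled on 2 days that lay 23 days apart, with 5 young and 5 old mice on the first day and 5 young and 4 old mice on the second. By the dates in the labels, young mice were 140 or 163 days old and old mice 719 or 742 days old at cull. The members were chosen by their counts in this table, since the difference of Cyp2b9 between the ages was already known. The age difference of each member is therefore a description and carries no test, while the tests below concern cull day, the spread among mice of the same age, and other genes.

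CYP2B enzymes sit in the endoplasmic reticulum, where they oxidise drugs, steroids and other lipophilic molecules with electrons passed on by the reductase encoded by Por. Cyp2b10 is the classic target of the constitutive androstane receptor (CAR, encoded by Nr1i3), which binds DNA with the retinoid X receptor Rxra and responds to phenobarbital-like inducers. Cyp2b9 and Cyp2b13 are known for female-biased expression in adult mouse liver. In adult males the pulsatile pattern of growth hormone, acting through Stat5b, keeps such female-biased genes low and sustains a male-biased set of genes.

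The members lie in a cluster of P450 genes on chromosome 7 of the mm10 build. Cyp2b10 (25897658 to 25926624), Cyp2b13 (26061495 to 26096196) and Cyp2b9 (26173409 to 26210660) are on the plus strand, and Cyp2b23 (26665227 to 26686430) is on the minus strand. Each has 9 exons in the GENCODE M21 annotation. The exon length used for counting was 1866 bases for Cyp2b9, 1867 for Cyp2b10, 1865 for Cyp2b13 and 2172 for Cyp2b23, so counts of the first 3 can be compared almost directly. No other annotated gene overlaps Cyp2b9, Cyp2b10 or Cyp2b23, while Cyp2b13 overlaps the processed pseudogene Rnf170-ps on the same strand.

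All 4 members were matched by symbol to RefSeq promoter sequence of the GRCm38.p6 build, and 3 of the 250-base windows before the transcript start are shown because Cyp2b9 and Cyp2b13 were near absent from young mice while Cyp2b10 was present at both ages. In the windows of Cyp2b9 (chr7:26173159-26173408, plus strand) and Cyp2b13 (chr7:26061245-26061494, plus strand), capitals mark the bases at which the pair differ. In the window of Cyp2b10 (chr7:25897408-25897657, plus strand), capitals mark TTGCATAA, a match to the C/EBP-like motif TTGCNNAA, and ATAAAA, whose letters resemble a TATA box.
Cyp2b9: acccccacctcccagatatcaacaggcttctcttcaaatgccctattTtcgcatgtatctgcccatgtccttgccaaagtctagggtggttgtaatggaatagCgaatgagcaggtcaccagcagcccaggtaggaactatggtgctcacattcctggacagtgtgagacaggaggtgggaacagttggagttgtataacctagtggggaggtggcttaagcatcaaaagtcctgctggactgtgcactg
Cyp2b13: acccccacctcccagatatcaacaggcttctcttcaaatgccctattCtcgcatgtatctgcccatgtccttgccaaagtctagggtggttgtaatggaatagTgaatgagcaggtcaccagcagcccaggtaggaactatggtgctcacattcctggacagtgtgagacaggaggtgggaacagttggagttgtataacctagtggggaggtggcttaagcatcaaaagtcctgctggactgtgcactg
Cyp2b10: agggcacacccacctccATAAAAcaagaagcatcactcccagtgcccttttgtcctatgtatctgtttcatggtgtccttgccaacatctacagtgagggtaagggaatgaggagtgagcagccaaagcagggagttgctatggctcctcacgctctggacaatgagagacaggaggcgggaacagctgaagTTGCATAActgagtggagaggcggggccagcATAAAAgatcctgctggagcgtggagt

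Cyp2b9 and Cyp2b13 were identical at 248 of 250 bases (99.2%). The differences are T48C and C104T, with the base of Cyp2b9 first and positions counted from 1 at the 5′ end of the window, 203 and 147 bases before the start. The window of Cyp2b9 was 70% identical to that of Cyp2b10 when aligned, and the window of Cyp2b10 was 62.8% identical to that of Cyp2b23.

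The letters of 6 motifs were looked for on both strands of each window. ATAAAA was found 27 and 233 bases before the start of Cyp2b10 and 54 bases before that of Cyp2b23, and occurred in 17.0% of 32851 windows of the same length before mouse genes. TTGCNNAA, present in 9.56% of windows, lay 58 bases before the start of Cyp2b10, 85 before that of Cyp2b23 and 180 before those of Cyp2b9 and Cyp2b13. In Cyp2b9 and Cyp2b13, the stretches that align with the C/EBP-like and nearer TATA-like letters of Cyp2b10 read TTGTATAA and ATCAAA, so neither motif is met there. A further motif, AGGTCA, the core letters bound by many nuclear receptors, lay 138 bases before the start of Cyp2b9 and Cyp2b13 and 164 before that of Cyp2b23, and occurred in 14.0% of windows. The STAT5-like TTCNNNGAA (7.02% of windows), the HNF1-like GTTAAT (6.43%) and the FOXA-like TGTTTNC (17.8%) were not found in any of the 4 windows. The motifs were searched as plain letters and may overlap one another, and the distal enhancer through which CAR acts on Cyp2b10 lies outside the window.

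The transcripts are similar enough for reads to be shared. Annotated transcripts of Cyp2b9 and Cyp2b13 were 89.3% identical, and those of Cyp2b9 and Cyp2b10 84.4%. Stretches of 100 bases, the read length in the labels, that also occur exactly in another gene's transcript made up 1.18% of Cyp2b9, 9.29% of Cyp2b13, 0.239% of Cyp2b23 and 0% of Cyp2b10. For Cyp2b13 these stretches were shared with Cyp2b9 and the predicted gene Gm45225. The handling of reads with several matches is not given in the sources used here, so the division of counts among the members is uncertain. Stretches of 50 bases were shared more often, at 11.2% of Cyp2b9, 27.3% of Cyp2b13, 9.69% of Cyp2b10 and 4.44% of Cyp2b23.

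Library totals over genes ran from 17381439 to 19583060 counts in young mice and from 18156240 to 20287628 in old mice. The 9 hepatocyte markers in the table summed to between 95817 and 154786 CPM (counts scaled by trimmed mean of M-values to a common library total) in young mice and between 119000 and 198522 in old mice. Of 58 markers of other liver and blood cells, 38 were tested and 32 were higher and 0 lower with age by edgeR's quasi-likelihood test with Benjamini-Hochberg adjustment. Their summed level was 346 to 941 CPM in young mice (median 483) and 390 to 4786 CPM in old mice (median 1028), and none of the 58 was at 0 in every library. Old mouse 1187 held the highest sum, and old mouse 1181 the median. Young mice 1184, 1186 and 1188 stood apart in acute phase genes, with Saa1 at 3188 to 8281 CPM against 15.8 to 33.9 CPM in the other 7 young mice. In bulk RNA, a smaller share of a cell type and less RNA per cell cannot be told apart.

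Cyp2b9 was close to undetected in young mice and present in every old mouse. On the first cull day the old mice had 1626.5 counts (mouse 1181), 91.5 (1183), 43.5 (1185), 384.5 (1187) and 105 (1189). On the second they had 43.5 (1236), 40 (1238), 296 (1240) and 169 (1242). Young mice had 0 to 3 counts, with a median of 1, and 4 of the 10 had none. Every old mouse was therefore above every young mouse, a separation met by 0.978% of the 12269 genes tested. As the gene was chosen for this contrast, nothing is read from that share.

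In CPM, the old mice had a lowest value of 1.94, a median of 5.48 and a highest value of 83.3, with a mean of 15.6 ± 26.0 (SD, n = 9). The young mean was 0.063 ± 0.064 CPM (SD, n = 10). Mouse 1181 alone lay far above its group, since the other 8 old mice ranged from 1.94 to 16.8 CPM with a mean of 7.13 ± 5.78 (SD, n = 8). Pooled over libraries, the count ratio of old to young was 249 with a 95% counting interval of 137 to 463. This exact interval covers counting error only, and rests on 11.5 young counts in all. Without mouse 1181 the ratio was 117 (interval 64.1 to 218). By cull day it was 318 (158 to 939) for the first and 127 (54.1 to 393) for the second. The fitted log2 difference was 7.76 in edgeR, 8.08 and 7.11 on the separate days, and 7.27 with the other-cell marker score added to the fit.

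**Figure D1:**
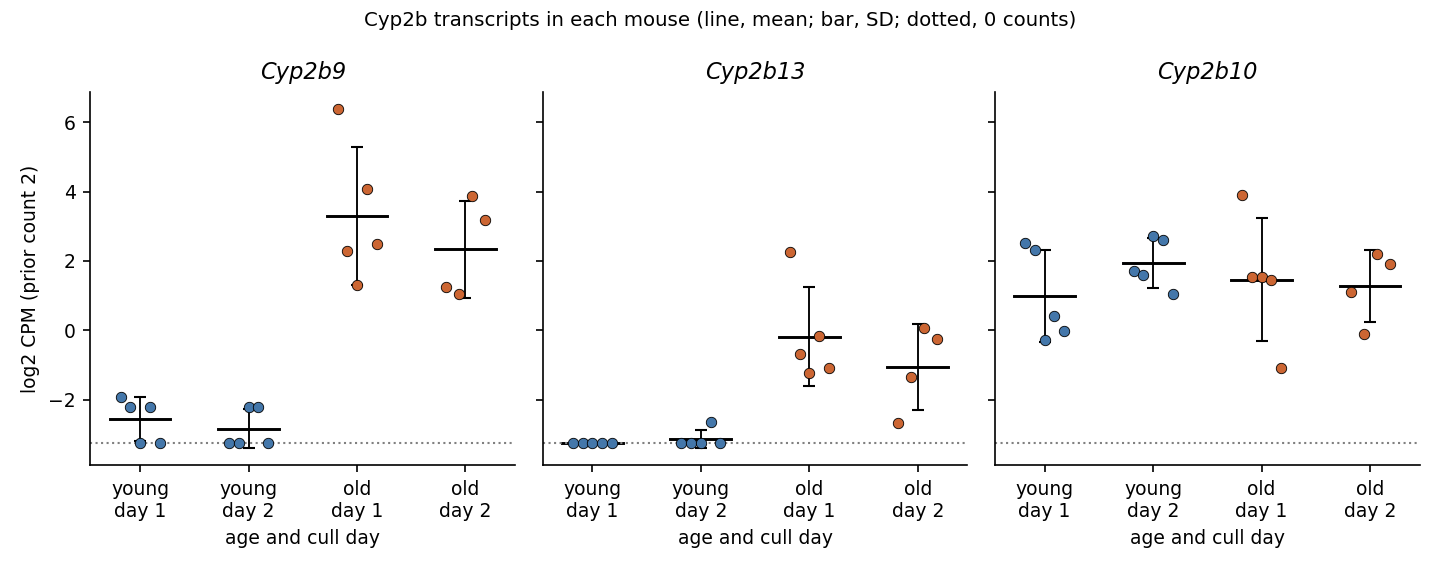
Each point is 1 mouse, placed by age and cull day, with log2 CPM (prior count 2) on the vertical axis, a line at the group mean and a bar of 1 SD. The dotted line is the value of 0 counts. Old mice lie above all young mice for Cyp2b9, 8 of 9 do for Cyp2b13, and the ages overlap for Cyp2b10, where old mouse 1181 is highest.

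Cyp2b13, the close relative of Cyp2b9, was also near absent from young mice and had lower counts than Cyp2b9 in every old mouse. Old mice of the first cull day had 92.5 (1181), 10 (1183), 6 (1185), 18.5 (1187) and 7 (1189) counts. Those of the second had 1 (1236), 5.5 (1238), 19 (1240) and 14.5 (1242). Among young mice, 9 had 0 counts and mouse 1243 had 1. Thus 8 of the 9 old values exceeded all young values, and old mouse 1236, with its single count, was not separated from young mouse 1243. Old mice averaged 0.975 ± 1.44 CPM (SD, n = 9), or 0.504 ± 0.307 CPM (SD, n = 8) without mouse 1181. The count ratio of old to young, 174 counts against 1, was 178 with a 95% counting interval of 31.6 to 7081, so its size is hardly defined. Without old mouse 1181 the ratio was 93.7 (16.5 to 3770), and on the second cull day alone 46.4 (7.86 to 1876). On the first day young mice had 0 counts, so no ratio is given. Cyp2b13 did not pass the filter on low counts and was not fitted.

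Cyp2b10 was expressed at both ages, and the groups overlapped. On the first cull day young mice had 106.5 (1180), 86.5 (1182), 13 (1184), 22 (1186) and 16.5 (1188) counts, and on the second 53.5 (1235), 52.5 (1237), 118.5 (1239), 109.5 (1243) and 40.5 (1244). Old mice of the first day had 288.5 (1181), 54.5 (1183), 51.5 (1185), 60 (1187) and 7 (1189), and those of the second 40.5 (1236), 17 (1238), 91 (1240) and 70.5 (1242). Only old mouse 1181 was above all young mice and only old mouse 1189 was below all of them, while 6 of 9 old mice lay below the young median.

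The mean of Cyp2b10 was 3.39 ± 2.21 CPM (young, SD, n = 10) against 3.83 ± 4.30 CPM (old, SD, n = 9). The direction of this difference depended on a few mice. The count ratio of old to young was 1.13 (95% counting interval 1.01 to 1.26) over all libraries, but 0.728 (0.640 to 0.828) without old mouse 1181 and 0.863 (0.770 to 0.965) without young mice 1184, 1186 and 1188. By cull day it was 1.73 (1.48 to 2.04) on the first, which holds all 4 of those mice, and 0.678 (0.572 to 0.804) on the second. These intervals leave out the spread between mice, which was far wider. The fitted log2 difference in edgeR was 0.17, with 0.82 on the first day, -0.56 on the second, -0.44 without mouse 1181 and 0.84 with the other-cell marker score added to the fit. Cyp2b10 thus showed no age difference of fixed sign.

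Cyp2b23 had 0 counts in all 19 libraries. With 3 counts as the limit that a count of 0 allows, its level was under 0.175 CPM in every young library and under 0.161 CPM in every old library. Expression below those limits could not be detected at this depth.

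The make-up of Cyp2b RNA differed between the ages as a result. Cyp2b10 made up 93.6% to 100% of Cyp2b counts in young mice (median 98.5%) and 5.88% to 51.0% in old mice (median 27.2%). Cyp2b9 counts exceeded those of Cyp2b10 in 8 of 9 old mice and in 0 of 10 young mice. The exception was old mouse 1185, with a Cyp2b9 to Cyp2b10 ratio of 0.845, and the highest ratio was 15 in old mouse 1189, the mouse with the least Cyp2b10. Summed over the subfamily, young mice had 0.711 to 6.66 CPM (median 3.04) and old mice 3.04 to 103 CPM (median 8.11). The sums overlapped, since old mice 1185, 1189, 1236 and 1238 lay under the young maximum.

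**Figure D2:**
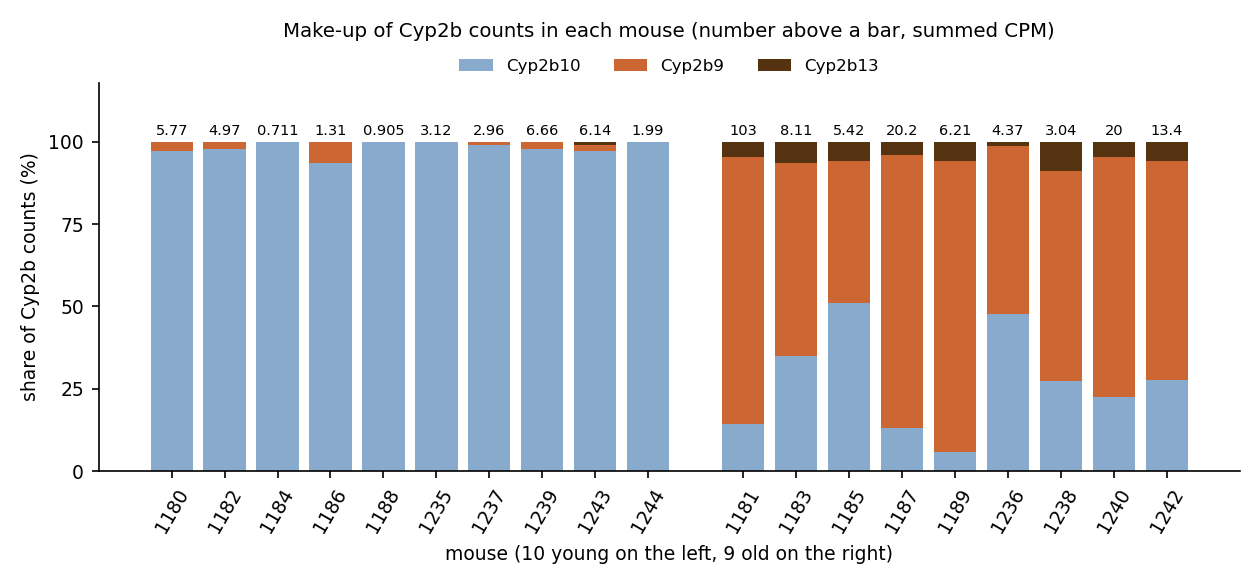
Stacked bars give the share (%) of Cyp2b counts from Cyp2b10, Cyp2b9 and Cyp2b13 in each mouse, young on the left and old on the right, with the summed CPM above each bar. Cyp2b10 holds at least 93.6% of each young bar and at most 51.0% of each old bar.

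Of the pair Cyp2b9 and Cyp2b13, Cyp2b13 took a small share of old counts. It held 5.85% of the pooled Cyp2b9 and Cyp2b13 counts of old mice. The share ran from 2.25% in mouse 1236 (exact binomial 95% interval 0.0562% to 11.8%) to 12.1% in mouse 1185 (4.53% to 24.3%). In mouse 1181, which had the most counts, it was 5.38% (4.34% to 6.53%). These intervals cover counting error only, and whether the share differed between old mice was not tested.

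Per length of transcript, Cyp2b9 in old mouse 1181 was above 89.5% of the genes tested in that library. In the other old mice it was above 18.6% (mouse 1238) to 64.7% (mouse 1187) of genes. In 8 of 9 old mice Cyp2b9 was the highest member and Cyp2b13 the lowest of those detected, level with Cyp2b10 in mouse 1189. Cyp2b10 lay at 2.50% (mouse 1189) to 63.9% (mouse 1181) in old mice and at 7.61% (mouse 1184) to 45.2% (mouse 1239) in young mice.

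Mice of the same age varied more in Cyp2b9 and Cyp2b10 than in most genes tested. The coefficient of variation of CPM was 167% for Cyp2b9 in old mice, higher than that of 99.5% of genes tested, against a median gene of 17.2%. For Cyp2b10 it was 112% in old mice, above 97.4% of genes, and 65.2% in young mice, above 96.9% of genes, with a median gene of 18.1% in young mice. Genes with a mean within 2-fold of the member's had a median of 14.5% for old Cyp2b9 (4563 genes), 22.4% for old Cyp2b10 (2921 genes) and 22.6% for young Cyp2b10 (2557 genes). Young Cyp2b9, with its few counts, had a coefficient of 102%, against a median of 105% in the 4 genes of similar level. Without mouse 1181 the coefficient in old mice was 81.1% for Cyp2b9 and 55.6% for Cyp2b10.

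Cull day was not used to choose the members, so it could be tested. Over all genes, 1506 of 12269 (12.3%) differed between the days with an adjusted p under 0.05 in edgeR, 702 higher (5.72% of genes) and 804 lower (6.55%) on the second day, but 0 did without young mice 1184, 1186 and 1188 (2474 at an unadjusted p under 0.05). Cyp2b9 had a log2 difference, second minus first day, of -1.64, and -0.18 without old mouse 1181. With 0 to 3 counts in young mice, Cyp2b9 passed the filter through the old mice and this estimate rests on them. It is therefore a description, and no test of it is given. Cyp2b10 had -0.02 (SE 0.555, edgeR adjusted p = 0.985), and 0.51 without old mouse 1181. It did not pass the threshold.

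The age difference itself was compared between the days by an interaction term. In edgeR 0 of 12269 genes (0%) passed, with 799 at an unadjusted p under 0.05, while DESeq2 called 10 and limma-voom with sample weights 349. The change of the age difference from the first to the second day was -1.38 for Cyp2b10 (SE 1.06, edgeR adjusted p = 0.877), and -0.27 without old mouse 1181. The standard error shows that a sizeable difference between days would have gone unseen. For Cyp2b9 no such test is given, since its young values were at or near 0 on both days.

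Among old mice, those with more Cyp2b9 had less RNA of male-biased genes. The male-biased score was the mean log2 CPM of 20 tested genes that are known to be higher in male liver. Mice 1181 and 1187 had the highest Cyp2b9, 6.38 and 4.08 on the log2 CPM scale, and the lowest scores, 6.85 and 6.76. Mice 1238 and 1185 had Cyp2b9 of 1.03 and 1.30 and the highest scores, 8.31 and 8.32. Old scores ran from 6.76 to 8.32 and young scores from 8.22 to 8.98.

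Over the 9 old mice Pearson's r between Cyp2b9 and the male-biased score was -0.895 (exact permutation p = 0.000532, adjusted p = 0.00691 over 13 relations). Spearman's rho was -0.917 (exact permutation p = 0.00131, adjusted p = 0.0171). Without mice 1181 and 1187, which were farthest from the median score, r was -0.892 (exact permutation p = 0.00694, adjusted p = 0.0226). By cull day it was -0.885 (first) and -0.919 (second), and it ranged from -0.963 to -0.876 when each old mouse was left out in turn. Without the Mup genes, whose near-identical copies share reads, it was -0.899. The male-biased list was drawn up with its fall by age in these libraries known. Cyp2b9 was chosen for its rise in the same libraries, so these p-values are not those of a choice made without the data.

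The relation had the same sign for every gene of the list. All 20 male-biased genes had a negative r with Cyp2b9 over the old mice, with a median of -0.726, and all 20 also did without mouse 1181, with a median of -0.658. Over all 12269 genes the median r was 0.006 and 49.3% were negative. The most negative were C6, a complement component, at -0.964 and Serpina1e, an alpha-1 antitrypsin gene with close paralogs, at -0.921. C6 was at 99.2 CPM in mouse 1181 and 161 in mouse 1187 against an old median of 215. Hsd3b5, a male-specific steroid-metabolising enzyme of mouse liver, had an r of -0.830, with 5.10 CPM in mouse 1181 and 8.05 in mouse 1187 against an old median of 159. These single-gene coefficients are descriptions, named after their values were seen, over 9 libraries that the genes share.

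The female-biased genes outside the Cyp2b subfamily did not give the mirror image. Cyp2b9 and the female-biased score, the mean over 14 tested genes, had r = 0.744 (exact permutation p = 0.0272, adjusted p = 0.0707) and rho = 0.45 (exact permutation p = 0.230, adjusted p = 0.332). Neither passed. The r passed with scaling by library totals alone (0.771, exact permutation, adjusted p = 0.0450) and without old mouse 1242 (0.841, exact permutation, adjusted p = 0.0292). The value rested on mouse 1181, since r was 0.294 without it and 0.049 without mice 1181 and 1236. With mouse 1181, 13 of 14 genes had a positive r, with a median of 0.416. Without it 9 were positive and 5 negative, with a median of 0.080. Cyp2a22 (0.883, and 0.718 without mouse 1181) and Cyp2a4 (0.808 and 0.667), both P450 genes of the same cluster, were highest.

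**Figure D3:**
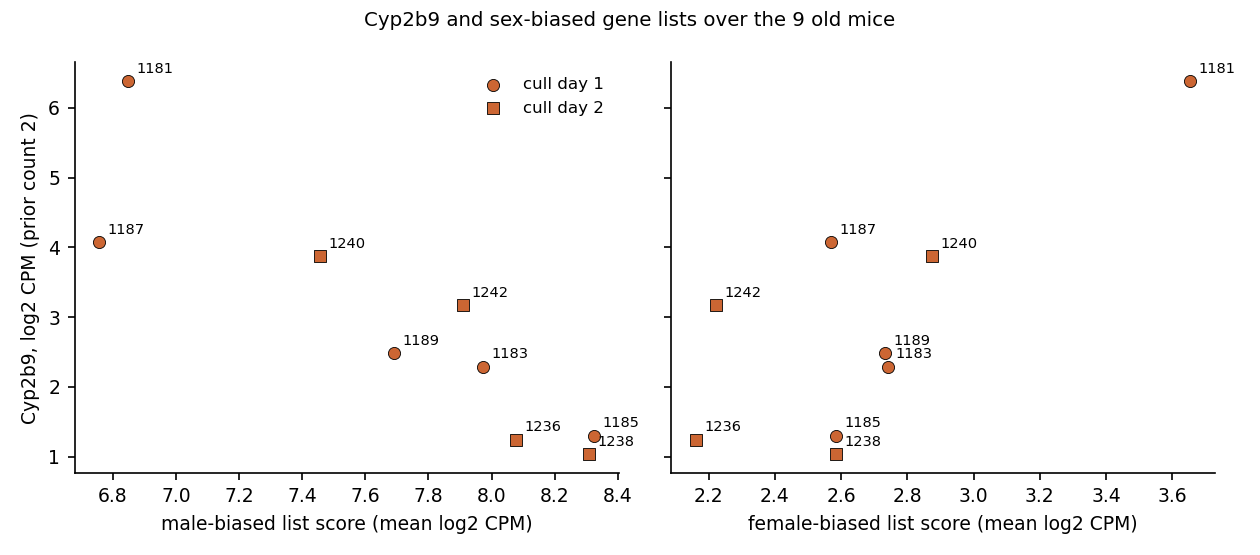
Each point is 1 old mouse, with Cyp2b9 (log2 CPM, prior count 2) on the vertical axis against the male-biased score on the left and the female-biased score on the right, both as mean log2 CPM. Cyp2b9 falls as the male-biased score rises on both cull days (r = -0.895), while the relation on the right rests on mouse 1181.

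Whether Cyp2b9 and Cyp2b10 varied together depended on single mice. Their r over the old mice was 0.707 (exact permutation p = 0.0387, adjusted p = 0.0840) and their rho 0.633 (exact permutation p = 0.0760, adjusted p = 0.198). Neither passed. It was 0.677 without mice 1181 and 1189, 0.406 without mouse 1181 alone and 0.871 without mouse 1189 alone, where it passed (exact permutation p = 0.00313, adjusted p = 0.0135). Cyp2b9 had an r of -0.021 with the acute phase score (rho 0.083, exact permutation p = 0.957 and 0.843) and of 0.317 with the score of 38 markers of other cells (rho 0.5, exact permutation p = 0.387 and 0.178), and neither passed. Without the 2 mice farthest from the median score these were -0.082 and 0.253, and without mouse 1181 alone 0.313 and 0.536. In old mice none of the 4 relations of Cyp2b10 passed: r was 0.513 with the female-biased score, -0.481 with the male-biased score, -0.431 with the acute phase score and 0.062 with the other-cell score, with adjusted exact permutation p from 0.294 to 0.966. The rho values were 0.5, -0.367, -0.5 and 0.217, with adjusted exact permutation p from 0.289 to 0.629. Without the 2 mice farthest from the median score, r was -0.159, -0.113, -0.304 and 0.314, and without mouse 1181 alone it was -0.131, -0.176, -0.339 and 0.119.

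In young mice the low values of Cyp2b10 coincided with the acute phase cluster. Mice 1184, 1186 and 1188 had 0.711, 1.23 and 0.905 CPM of Cyp2b10, the 3 lowest of the 10 young mice, whose other values ran from 1.99 to 6.53 CPM. Their acute phase scores, the mean log2 CPM of 20 genes such as Saa1, Orm2 and Lcn2, were 9.77 to 10.8, against 6.49 to 7.18 in the other 7. They also had the 3 lowest female-biased scores, 1.05 to 1.29 against 1.53 to 2.75. Their other-cell scores were 2.96 to 3.81 (median 3.62), against 2.28 to 3.40 (median 2.67) in the other 7, and those of mice 1184 and 1186 exceeded every other young mouse. Alb, the albumin gene, took 5.82% to 6.29% of their counts, against 10.2% to 11.1% in the other 7. The part of these differences in the low Cyp2b10 was not tested. The mice thus fell into separate clusters, and no coefficient over all 10 is given, although 3 of the 4 relations passed the threshold in that form.

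Within the other 7 young mice none of the relations of Cyp2b10 passed. Its r was -0.073 with the acute phase score (exact permutation p = 0.875), 0.453 with the female-biased score (exact permutation p = 0.321), -0.513 with the male-biased score (exact permutation p = 0.251) and -0.720 with the other-cell score (exact permutation p = 0.0627, adjusted p = 0.204). The rho values were 0.071, 0.5, -0.429 and -0.75, with exact permutation p from 0.0663 to 0.906. Without the 2 mice farthest from the median score, r was -0.207, 0.267, -0.068 and -0.952. Without mice 1237 and 1244, the 2 farthest from the median of Cyp2b10, r was -0.651, 0.948, -0.793 and -0.903. Each of these values rests on 5 mice. In old mice the lowest Cyp2b10, 0.365 CPM in mouse 1189, also came with the highest acute phase score of that age, 8.95. Old mouse 1236 had a score of 8.90 and 2.08 CPM of Cyp2b10, so the pairing did not extend to the next mouse.

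**Figure D4:**
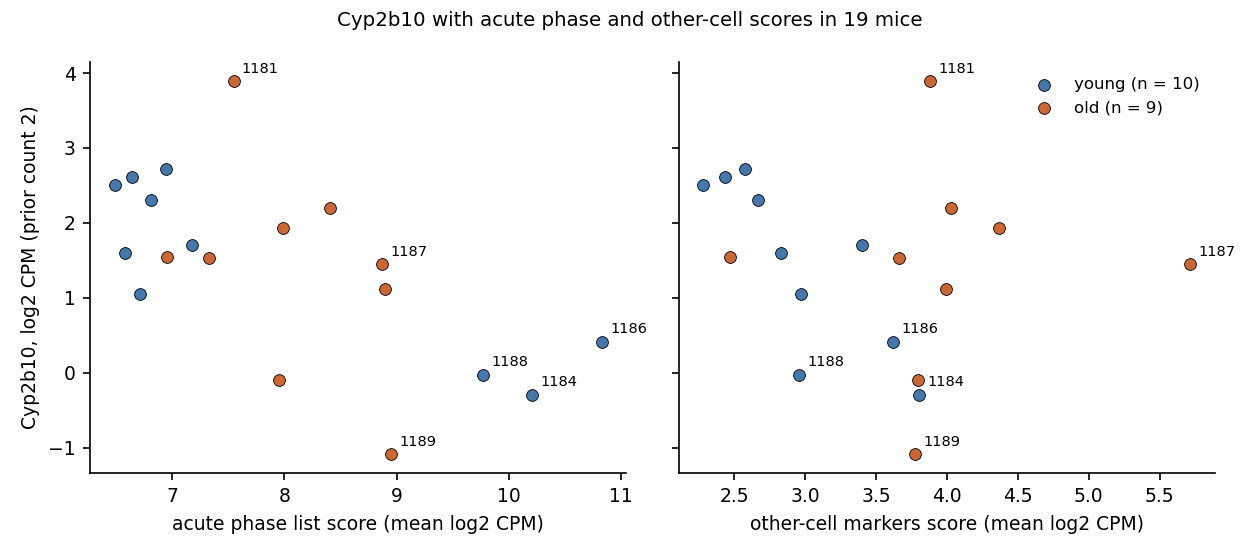
Each point is 1 mouse, young in blue and old in orange, with Cyp2b10 (log2 CPM, prior count 2) against the acute phase score on the left and the other-cell score on the right (mean log2 CPM). Young mice 1184, 1186 and 1188 form a separate cluster at acute phase scores of 9.77 to 10.8 and hold the 3 lowest young values of Cyp2b10.

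The genes whose level most resembled each member over the 9 old mice were taken from 11278 tested genes, by Pearson's r of log2 CPM after centring on cull day means. For Cyp2b9 they were Mapk12, a stress-activated kinase (0.958), Abcb9, a lysosomal peptide transporter (0.955), the zinc finger genes Zfp455 (0.953) and Zfp97 (0.932), and Cyp2a22 (0.920). Without mouse 1181 these were 0.973, 0.919, 0.896, 0.852 and 0.819. Cyp2b13 itself had an r of 0.926 with Cyp2b9, and 0.831 without mouse 1181. Transcripts of this pair share some identical stretches, and the part of shared reads in this r was not tested. For Cyp2b13 the nearest genes were Fam151b (0.946), Zfp455 (0.911), the calcium entry regulator Saraf (0.895), the organic anion transporter Slco1a4 (0.889) and the tRNA methyltransferase Trmo (0.883). Zfp455 therefore stood in both lists. Without mouse 1181 the values for Cyp2b13 were 0.966, 0.797, 0.776, 0.749 and 0.851. They rest on low counts, since Cyp2b13 had 1 to 19 counts in the old mice other than 1181 and did not pass the filter.

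For Cyp2b10 the nearest genes were different: Ttc32 (0.952), the neutrophil protease inhibitor Serpinb1a (0.952), the tRNA-modifying enzyme Tyw3 (0.938), the hepcidin-family gene Hamp2 (0.930) and the secreted factor Lect2 (0.930). Without mouse 1181 they were 0.908, 0.910, 0.890, 0.886 and 0.869. All of these coefficients are descriptions over 9 libraries, the highest of many. Mapk12 was at 1.01 ± 0.300 CPM (young, SD, n = 10) against 2.23 ± 0.514 CPM (old, SD, n = 9), and Serpinb1a at 6.40 ± 4.26 and 22.6 ± 11.3 CPM.

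Other genes of the pathways around Cyp2b were tested by age, from 7 lists. Over all genes 3785 of 12269 (30.9%) differed between ages with an adjusted p under 0.05 in edgeR. Of these 2005 were higher (16.3% of genes) and 1780 lower (14.5%) with age, and the median log2 difference was -0.003. Scaled by library totals alone, 64.2% of the calls were higher, against 53.0% here.

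Neither receptor best known for acting on Cyp2b genes passed by age. Of 22 receptors and partners, 0 were higher and 7 lower in old mice, with a median log2 difference of -0.24, against 14.5% lower over all genes. Nr1i3, which encodes CAR, was at 46.2 ± 17.6 CPM (young, SD, n = 10) against 43.6 ± 12.9 CPM (old, SD, n = 9), a log2 difference of -0.03 (SE 0.216, edgeR adjusted p = 0.925). Nr1i2, which encodes the pregnane X receptor (PXR), differed by -0.10 (SE 0.0932, edgeR adjusted p = 0.429). Hnf4a, the hepatocyte nuclear factor that supports many P450 genes, fell by 0.30 (SE 0.0984, edgeR adjusted p = 0.0268). The chaperones Hsp90aa1 and Hsp90ab1, which hold CAR in the cytoplasm, fell by 0.86 (SE 0.202, edgeR adjusted p = 0.00485) and 0.37 (SE 0.0881, edgeR adjusted p = 0.00494), and the coactivator Ncoa1 by 0.42 (SE 0.105, edgeR adjusted p = 0.00737). The 7 calls became 0 on the first cull day alone, 2 on the second, 3 without young mice 1184, 1186 and 1188, 4 with the other-cell covariate and 4 with no cull day term.

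Of 34 tested targets of CAR and PXR outside the subfamily, 2 were higher and 7 lower, with a median log2 difference of -0.13. Cyp1a2, a P450 that oxidises caffeine and aromatic amines, fell by 0.91 (SE 0.145, edgeR adjusted p = 0.00029). The sulfotransferase gene Sult1d1 fell by 0.57 (SE 0.106, edgeR adjusted p = 0.000978), and the flavin monooxygenase gene Fmo5 by 0.43 (SE 0.0833, edgeR adjusted p = 0.00133). The 2 that rose, named after their values were seen, were the efflux transporters Abcb1a (1.23) and Abcc4 (0.92), both under 3 CPM on average. The 9 calls of 34 stand beside the 30.9% of all genes called. They became 13, 3 higher and 10 lower, without young mice 1184, 1186 and 1188, where 3355 genes in all were called. They became 3 on the first cull day alone, 4 with the other-cell covariate and 5 without old mouse 1236.

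Electron transfer and haem synthesis serve every P450. Of 17 such genes, 1 was higher and 4 lower, with a median log2 difference of -0.13, again close to the share over all genes. Por differed by -0.32 (SE 0.135, edgeR adjusted p = 0.0811) and Alas1, the first enzyme of haem synthesis, by -0.83 (SE 0.377, edgeR adjusted p = 0.0981), so neither passed. The haem enzyme gene Cpox and the mitochondrial cytochrome b5 gene Cyb5b each fell by 0.37, with edgeR adjusted p of 0.0116 and 0.0156. With the other-cell covariate 2 genes of this list were higher and 1 lower, and on the first cull day alone 1 was higher and 0 lower.

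Over both cull days the sex-biased lists held the lowest and the highest of the 7 list medians, but this order did not hold on each day. On the first day alone the acute phase list was lowest, at -1.02, and on the second it was highest, at 1.28. Of 20 tested male-biased genes, 0 were higher and 12 lower in old mice, against 14.5% lower over all genes. Their median log2 difference was -0.77. This fall was already known from the same libraries when the list was drawn up, so it is no separate evidence. Ugt2b1, a glucuronosyltransferase gene, fell from 626 ± 101 CPM (young, SD, n = 10) to 333 ± 68.0 CPM (old, SD, n = 9), and Ugt2b38 fell by 0.83 on the log2 scale. Mup7, a major urinary protein gene whose copies share reads, fell by 3.64. On the first and second cull days alone the median was -0.83 and -0.67. The count of 12 was 8 with the other-cell covariate and 6 on the first cull day alone.

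Of 14 tested female-biased genes outside Cyp2b, 4 were higher and 0 lower, beside 30.9% of all genes called (16.3% higher, 14.5% lower). The median log2 difference of the 14 genes was 0.69. On the first cull day alone this median was 1.28 over 13 genes, while on the second it was -0.05 and 7 of 14 genes were negative. The first day holds young mice 1184, 1186 and 1188, which had the 3 lowest female-biased scores of the young mice, and their part in the difference was not tested. Ntrk2, a neurotrophin receptor gene, rose from 0.817 ± 0.491 CPM (young, SD, n = 10) to 8.16 ± 4.58 CPM (old, SD, n = 9), a log2 difference of 3.21 (SE 0.353, edgeR adjusted p = 1.79e-05). Abcd2, a peroxisomal fatty acid transporter gene, rose by 1.49 (SE 0.443, edgeR adjusted p = 0.0168). Another 10 listed genes, among them Sult1e1, Sult2a1, Sult3a1 and Hao2, were too low at both ages to be tested. The 4 calls became 2 on the first cull day alone.

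Of 14 tested genes of growth hormone signalling and sex-biased regulation, 3 were higher and 1 lower, beside 30.9% of all genes called. The median of the 14 genes was 0.02. The prolactin receptor gene Prlr, which is also in the female-biased list, rose by 1.15 (SE 0.191, edgeR adjusted p = 0.000385) and was higher in 9 of 9 old mice than in any young mouse. The zinc finger gene Zbtb20 fell by 1.04 (SE 0.255, edgeR adjusted p = 0.00589). Stat5b differed by -0.09 (SE 0.110, edgeR adjusted p = 0.573) and Bcl6, a repressor of female-biased genes in male liver, by -0.86 (SE 0.466, edgeR adjusted p = 0.167). The 4 calls became 2 with the other-cell covariate and 1 on the first cull day alone.

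Of 20 acute phase genes, 0 passed by age in edgeR, with 2 at an unadjusted p under 0.05, while DESeq2 called 1 lower and limma-voom with sample weights called 1 higher. Without young mice 1184, 1186 and 1188, 16 were higher in old mice, and on the second cull day alone 17 were. The same 3 mice therefore bear on the age comparison of Cyp2b10 and of this list.

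**Figure D5:**
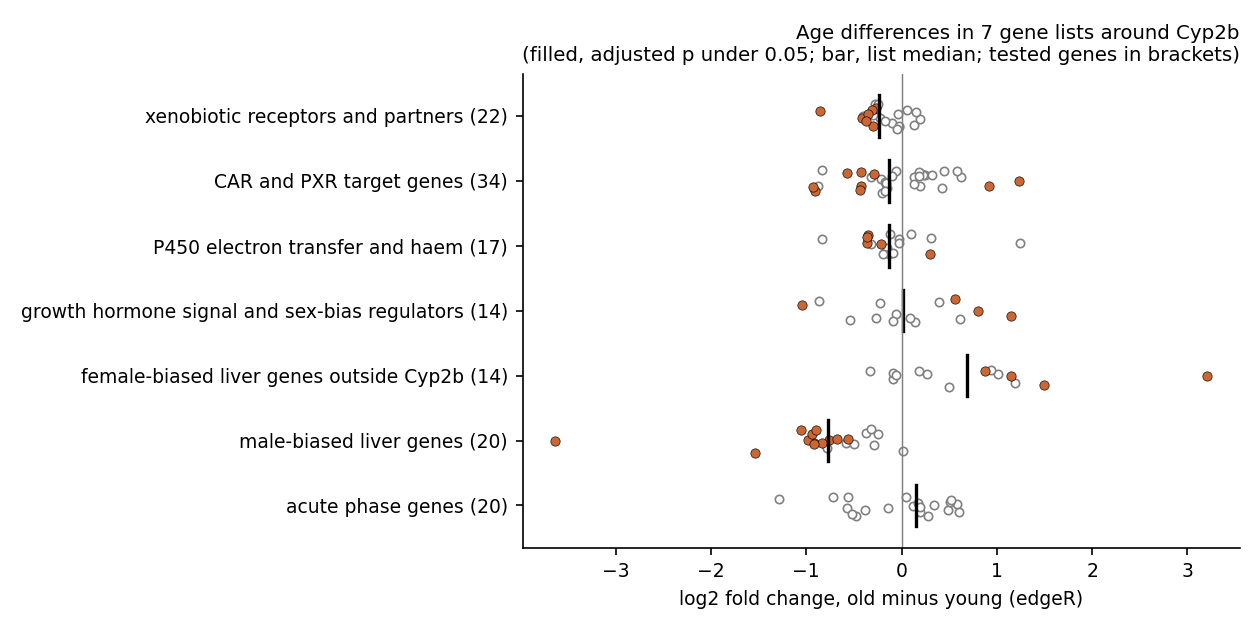
Each point is 1 tested gene, placed by its log2 difference between old and young mice in edgeR, in 7 lists. Filled points have an adjusted p under 0.05, and a bar marks the list median. Over both cull days it is lowest for male-biased genes (-0.77) and highest for female-biased genes outside Cyp2b (0.69), whose median was -0.05 on the second day alone.

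Neighbouring genes were called by age about as often as genes at large. Within 500 kb of a member lie 32 other genes of the table, of which 17 were tested, 2 higher and 2 lower in old mice, with a median log2 difference of -0.03, and 5 had no count in any library. These 4 calls of 17 stand beside the 30.9% of all genes called. The 2 that rose were Tgfb1 (1.50, SE 0.336, edgeR adjusted p = 0.0035), a cytokine gene, and Axl (1.52, SE 0.501, edgeR adjusted p = 0.0277), a receptor kinase gene of macrophages and other non-hepatocytes. Both were highest in old mouse 1187, at 38.5 and 141 CPM, the mouse with the highest level of other-cell markers, and the part of those cells in the rise was not tested. Cyp2f2, which encodes a naphthalene-oxidising P450, fell by 0.57 (SE 0.108, edgeR adjusted p = 0.00103), and Bckdha, for a subunit of branched-chain keto acid dehydrogenase, by 0.23 (SE 0.0870, edgeR adjusted p = 0.0496).

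The Cyp2a genes between and beside the members differed among themselves. Cyp2a4, a female-biased steroid hydroxylase gene 96.5 kb from Cyp2b9, averaged 3.21 ± 1.54 CPM (young, SD, n = 10) against 7.65 ± 7.33 CPM (old, SD, n = 9), with a log2 difference of 1.02 (SE 0.483, edgeR adjusted p = 0.116). By cull day it was 2.10 and -0.29, and mouse 1181 held the highest value, 23.5 CPM. Cyp2a22 differed by 0.94 (SE 0.444, edgeR adjusted p = 0.113). Cyp2a5, a coumarin hydroxylase gene whose transcript closely resembles that of Cyp2a4, differed by -0.87 (SE 0.330, edgeR adjusted p = 0.0507), and Cyp2a12 by -0.22 (SE 0.0824, edgeR adjusted p = 0.0504). None of these 4 passed. Cyp2b19, a further member of the subfamily known from skin, had 0.5 counts in a single old library.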

How the data were processed

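The authors deposited 1 table of estimated counts per gene, in multiples of 0.5 with 29.2% of entries not whole. Per the file headers, HOMER's analyzeRepeats.pl counted reads in exons of RefSeq transcripts on mm10, and per the submitters' processing notes STAR and HOMER were used. Versions, strand setting and the handling of reads with several matches are not given in the sources used here. Per the labels' protocols, RNA was extracted with Trizol and chloroform, and libraries were stranded with paired reads of 100 bases. The other deposited columns used, per the file headers, were coordinates and the exon length in bases (Length, a number with no normalisation).

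Counts were rounded to whole numbers for count tests, a step the tests had not been fixed for. edgeR 4.0.16 (R 4.3.3) fitted age and cull day over all 19 libraries with trimmed mean of M-values scaling, filterByExpr by age (minimum count 10; 12269 genes passed, among them Cyp2b9 and Cyp2b10) and Benjamini-Hochberg adjustment, with a threshold of 0.05. The fit was tested on simulated data with the same dispersion for every gene, no cull day effect and no outlying mice. That setting does not cover genes as variable as the members. The SE given with a log2 difference is its size divided by the square root of edgeR's F statistic. Scores are means of log2 CPM (prior count 2). Relations were tested by exact permutation over all 362880 pairings of 9 old mice, and by 100000 permutations for 10 young mice, with adjustment over 13 relations. A relation needed 10 counts in at least 6 mice of each member. Counting intervals are exact, at 95%, and a limit for a count of 0 uses 3 counts.

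Named genes were the 4 members, the 3 called genes with the smallest p in each list, Nr1i3, Nr1i2, Por, Alas1, Hnf4a, Stat5b and Bcl6, neighbours within 500 kb, and the 5 genes most like each member with a mean of at least 1 CPM in old mice. Members, lists and rules were chosen with earlier results of these data known. Alternatives were DESeq2 1.42.0, limma 3.58.1 (voom with sample weights), other scaling, filters and covariates, single cull days and left-out mice. The labels give each library a number but do not state that each is a separate animal, so p-values measure the spread between these libraries. Values of a few genes that the naming rule picked are not reported here.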

Additional observations from a re-analysis of the deposited data

Results flagged for a closer look

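Highest or lowest values that stood apart from their group by Dixon's criterion were looked for in 124 sets of values, each a named gene or score in young or old mice, and 15 were found. Chance flags about 1 in 20 sets of independent values that are normally distributed, which CPM need not be, and all 15 were highest values. These sets also share mice and include the members and genes named for resembling them. The count is therefore not read against that rate. Old mouse 1181 had the highest value in 6 of them: Cyp2b9 (83.3 CPM, next 16.8), Cyp2b10 (14.8 CPM, next 4.48), Cyp2b13 (4.74 CPM, next 0.935), Cyp2a22 (8.69 CPM, next 4.21), Slco1a4 (59.2 CPM, next 37.7) and the female-biased score (3.65, next 2.88, as mean log2 CPM). It was not the highest old mouse for markers of other cells, whose sum was 1028 CPM there.

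Old mouse 1187 was highest for Axl (141 CPM, next 19.5) and Tgfb1 (38.5 CPM, next 15.8), and for the summed other-cell markers (4786 CPM). Old mouse 1189 was highest for Hnf4a (834 CPM, next 620) and old mouse 1185 for Por (217 CPM, next 173).

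In young mice, the single count of Cyp2b13 in mouse 1243 (0.0546 CPM) stood against 0 in the others. Young mouse 1239 was highest for Alas1 (476 CPM, next 230) and Cyp2a22 (3.44 CPM, next 2.05), mouse 1186 for Ccdc97 (23.8 CPM, next 19.1) and mouse 1180 for Zbtb20 (10.4 CPM, next 5.20).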

How the results depend on the processing

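No paired analysis was possible because library numbers are not shared between ages. Cyp2b9 exceeded every young value in every old mouse, and its age difference ranged from 6.75 to 7.99 when each mouse was left out. It was 2.40 when the members were summed as 1 feature, which adds Cyp2b10. The 3785 genes differing by age became 1673 with the other-cell covariate, 450 on the first cull day alone and 2389 on the second, and 3014 to 3949 with each mouse left out. The 1506 genes differing by cull day became 971 with no filter, 0 without young mice 1184, 1186 and 1188, and 609 to 2336 with each mouse left out. The 0 interaction calls became 10 in DESeq2 and 349 in limma-voom with sample weights, which changes both the tool and the weighting, and 0 to 1 with each mouse left out. In old mice the 1 relation past the threshold became 2 with library totals alone, and 1 to 2 with each mouse left out, with 2 without mouse 1189 or mouse 1242. In young mice the 3 became 0 without mice 1184, 1186 and 1188, an alternative chosen after seeing the data, and 0 to 3 with each mouse left out, with 0 without mouse 1184. The cause of these changes was not tested. The relation of Cyp2b9 with the male-biased score passed under all 16 alternatives run, from -0.963 to -0.876 with each old mouse left out. Depth limits the young values of Cyp2b9 (11.5 counts in all) and of Cyp2b13 (1 count), and Cyp2b23, which had 0 counts.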
